A study of Mus musculus with 6 samples.

Results

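The genes described are 32 genes of the lysosome, namely its soluble hydrolases with their activator proteins and its membrane proteins, with the cathepsins not included. They were taken by name from a list of lysosomal genes, and the list was drawn up with earlier results of these data known. All 32 had a probe set with exactly 1 gene symbol, out of 19938 genes with one, and a gene with several was read from its brightest one on average. RNA was measured on 6 arrays, 1 per mouse, from 3 MYB knockdown mice and 3 wild type mice, all C57BL6 males aged 4 weeks. From the bone marrow of each mouse, cells positive for Kit and CD11b and low for lineage markers (K11bL cells) were sorted. Kit is a receptor tyrosine kinase of progenitors, and myeloid cells carry the integrin CD11b, encoded by Itgam. The labels do not say how Myb was knocked down, in which cells, or which lineage markers the sort used.

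Lysosomes are acid compartments in which hydrolases break down glycoproteins, glycosaminoglycans, sphingolipids, glycogen and peptides, and the loss of single hydrolases causes storage diseases. Most hydrolases receive a mannose 6-phosphate tag in the Golgi and are carried to the lysosome by receptors for that tag, while a proton pump keeps the compartment acid. Heavily glycosylated membrane proteins such as Lamp1 and Lamp2 line the membrane. In granulocyte precursors the azurophil granules are related to lysosomes and hold several of the same hydrolases, and macrophages are rich in lysosomes. Transcription factors of the MiT family, Tfeb among them, bind E-box letters in the promoters of many lysosomal genes.

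The arrays had medians between 5.87 and 5.99 on the log2 scale of the deposited values, and knockdown mouse 3 stood apart: its array correlated at 0.977 with knockdown mouse 1 and at 0.984 with knockdown mouse 2, against 0.993 to 0.995 among wild type arrays. Myb, the targeted gene, had log2 values of 11.26, 11.08 and 11.14 in knockdown and 11.47, 11.46 and 11.46 in wild type mice. The difference of -0.30 ± 0.06 (SE) had an adjusted p of 0.0196, which lay above 0.05 when 1 wild type mouse, whichever, or knockdown mouse 2 was left out (highest 0.0963), after median centring (0.074) and without the trend (0.0662). Kit, the sort marker, had log2 values between 10.21 and 10.24 in knockdown and between 10.38 and 10.58 in wild type mice. Itgam had log2 values between 9.07 and 9.85 in knockdown and between 9.81 and 9.90 in wild type mice. Both gate markers were thus measured well above the array medians in every mouse.

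Most lysosomal genes differed little between knockdown and wild type mice, while 1 rose and a few fell. Cd68, a membrane glycoprotein, rose by 1.23 ± 0.18 on the log2 scale (SE, n = 3 mice per group, adjusted p = 0.00402). Neu1, a sialidase, fell by 1.17 ± 0.13, and Arsb, a sulfatase of glycosaminoglycans, fell by 1.15 ± 0.17. Hexa, the alpha subunit of beta-hexosaminidase, fell by 0.70 ± 0.11, Galns, another sulfatase, by 0.50 ± 0.10 and Psap, the precursor of the saposins, by 0.33 ± 0.07. Of the 32 genes 1 rose and 5 fell at an adjusted p of 0.05 (limma, adjusted over all 13956 genes tested). These are 3.12% and 15.6% of the members, against 6.12% of all genes called higher and 5.48% called lower (11.6% called in all). At an unadjusted p under 0.05, 2 members were higher and 10 lower, against 2099 higher and 1479 lower of all 13956 genes tested. The median difference of the members was -0.07 and that of all genes tested 0.02. The count of falls depended on the mice: it was 3 without wild type mouse 2, wild type mouse 3 or knockdown mouse 2, 9 without knockdown mouse 3 and 11 with array weights. Cd68 was the single rise in each of those fits.

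**Figure D1:**
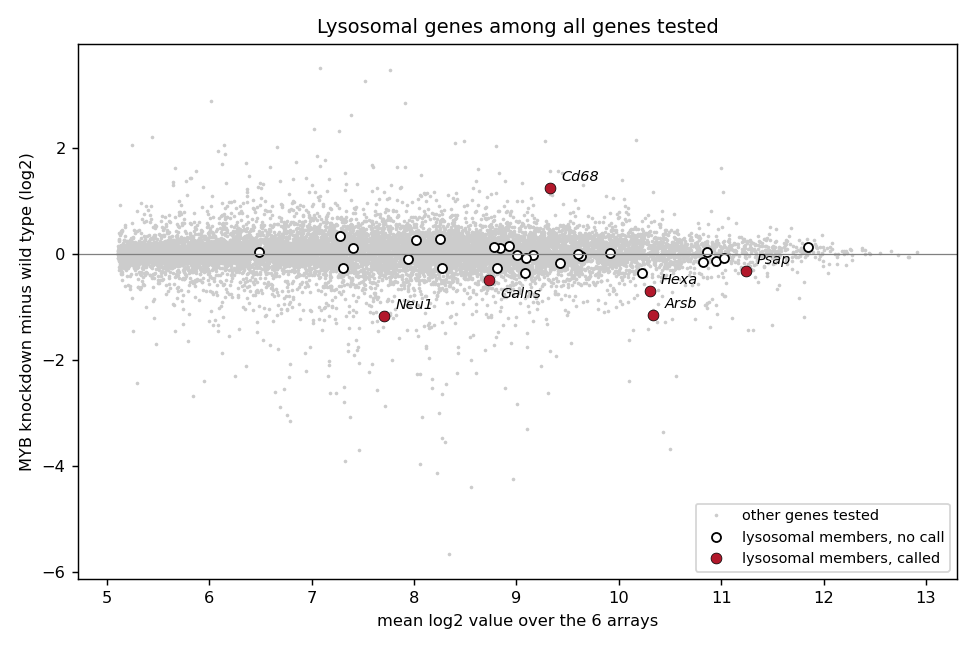
Each point is 1 gene, with its mean log2 value over the 6 arrays on the x axis and its log2 difference, MYB knockdown minus wild type, on the y axis. Grey points are all genes tested, open circles are lysosomal genes without a call and red circles are those called at an adjusted p of 0.05. Cd68 lies at 1.23 above the line of no difference, Neu1 and Arsb lie at -1.17 and -1.15, and most open circles lie close to the line.

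Promoters are shown for 4 genes that carry E-box letters and for the 4 genes with the largest changes. The windows, from RefSeq on the build GRCm38.p6, run from 250 bases before a gene's start to 50 after it, and 29 of the 32 genes matched with 31 windows. Galns, Asah1 and Npc1 had none in the table used. The letters CACGTG, which read the same on both strands, stood in 9 of the 31 windows (29.0%), against 7.15% of all 32851 promoter windows. The longer form TCACGTGA, which contains CACGTG, stood in 2 of the 31, those of Mcoln1 and Gla, against 0.974% of all. In the 100 bases before the start, Lamp1 has CACGTG at 61, 45, 28 and 15 bases before it (chr8:13159061-13159160, plus strand). Mcoln1 has it at 71 and 45 bases (chr8:3500419-3500518, plus strand), Glb1 at 48 bases (chr9:114400978-114401077, plus strand) and Naglu at 73 bases (chr11:101069994-101070093, plus strand). Capitals mark CACGTG.
Lamp1: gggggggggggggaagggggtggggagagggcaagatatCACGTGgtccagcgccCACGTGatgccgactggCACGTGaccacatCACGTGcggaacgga
Mcoln1: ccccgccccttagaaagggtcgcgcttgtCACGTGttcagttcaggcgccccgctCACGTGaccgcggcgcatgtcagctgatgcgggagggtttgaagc
Glb1: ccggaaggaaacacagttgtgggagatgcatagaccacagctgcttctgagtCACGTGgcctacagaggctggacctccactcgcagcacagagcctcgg
Naglu: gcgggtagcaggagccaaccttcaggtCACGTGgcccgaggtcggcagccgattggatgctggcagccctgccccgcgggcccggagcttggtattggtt

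The other carriers were Gaa, Sgsh, Lgmn, Arsa and Gla. Among the 9 carriers limma called 0 genes, 4 had an unadjusted p under 0.05, and the differences ran from -0.36 (Gla) to 0.33 (Lgmn) with a median of 0.03. Of these, Sgsh and Lamp1 passed the test, as lower, without knockdown mouse 3 and with array weights. Among the 20 genes whose windows lack CACGTG, 1 rose (Cd68) and 4 fell (Neu1, Arsb, Hexa and Psap), with differences from -1.17 to 1.23 and a median of -0.09. Of these 20, 7 had an unadjusted p under 0.05. Over all 13956 genes tested limma called 11.6%, so that 0 of 9 is a count near that share. An unadjusted p under 0.05 was found for 3578 of all genes tested. No test was made of this split, and a window without the letters says only that they are not in those 300 bases. The letters bound by MYB, searched on both strands as CAACGG, then as CAACTG, then as TAACGG and then as TAACTG, stood in 8 of the 31 windows (25.8%), against 28.3% of all windows, a share close to the background. The 8 were Neu1, Hexa, Glb1, Gla, Gm2a, Idua, Npc2 and Smpd1.

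For 4 genes that changed, the 250 bases before the start are shown, with the MYB letters in capitals on either strand. Neu1 (chr17:34931003-34931252, plus strand) has CAACTG at 229 and 152 bases before the start. Hexa (chr9:59539290-59539539, plus strand) has it at 135 bases, on the other strand. The windows of Cd68 (chr11:69666171-69666420, minus strand) and Arsb (chr13:93771429-93771678, plus strand) hold neither the MYB letters nor CACGTG.
Cd68: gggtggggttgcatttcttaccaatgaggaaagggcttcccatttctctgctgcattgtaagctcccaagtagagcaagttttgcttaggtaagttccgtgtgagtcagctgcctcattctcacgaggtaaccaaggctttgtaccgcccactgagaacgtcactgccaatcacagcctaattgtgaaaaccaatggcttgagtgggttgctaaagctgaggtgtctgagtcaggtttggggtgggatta
Neu1: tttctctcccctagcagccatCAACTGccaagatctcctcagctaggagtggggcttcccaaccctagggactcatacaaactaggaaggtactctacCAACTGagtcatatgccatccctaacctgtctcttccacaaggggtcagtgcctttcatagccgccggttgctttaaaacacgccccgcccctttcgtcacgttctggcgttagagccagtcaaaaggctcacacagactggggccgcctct
Hexa: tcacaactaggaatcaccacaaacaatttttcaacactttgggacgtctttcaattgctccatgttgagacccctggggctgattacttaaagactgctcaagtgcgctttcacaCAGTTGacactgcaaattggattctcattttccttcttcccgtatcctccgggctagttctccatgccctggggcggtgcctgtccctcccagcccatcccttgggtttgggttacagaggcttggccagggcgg
Arsb: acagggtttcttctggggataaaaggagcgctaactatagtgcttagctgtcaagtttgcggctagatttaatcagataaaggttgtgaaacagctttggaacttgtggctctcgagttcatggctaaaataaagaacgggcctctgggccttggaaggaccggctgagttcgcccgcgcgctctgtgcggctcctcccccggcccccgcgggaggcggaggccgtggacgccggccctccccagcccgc

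Among the membrane proteins, Cd68, or macrosialin, a member of the LAMP family found in late endosomes and lysosomes of macrophages and other myeloid cells, moved most. Its log2 values were 9.82, 9.64 and 10.38 in the 3 knockdown mice, against 8.53, 8.80 and 8.81 in the 3 wild type mice. Every knockdown mouse lay above every wild type mouse, and knockdown mouse 3 was the highest. The rise was 2.35-fold, and it was called in all 14 other fits, with differences from 0.97 to 1.39 (adjusted p between 2.97e-05 and 0.0275). Neither Lamp1 nor Lamp2, of the same family, was called. Lamp1 had log2 values of 10.79, 10.67 and 10.76 in knockdown mice, against 10.89, 10.94 and 10.89 in wild type mice, so its groups did not overlap. The difference of -0.17 ± 0.07 had an adjusted p of 0.156, and 0.0437 without knockdown mouse 3. Lamp2, needed for the fusion of autophagosomes with lysosomes, differed by -0.13 ± 0.09 (adjusted p = 0.404).

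Scarb2, or LIMP-2, an abundant protein of the lysosomal membrane, differed by -0.27 ± 0.11 (adjusted p = 0.18, and 0.0487 with array weights). Mcoln1, the calcium channel TRPML1, differed by 0.14 ± 0.13 (adjusted p = 0.579). Its knockdown values were 8.87, 8.88 and 9.24 and its wild type values 8.75, 8.97 and 8.86, so that only knockdown mouse 3 lay above the wild type range. Laptm5, a membrane protein of lysosomes in blood cells, was higher in each knockdown mouse than in any wild type mouse, by 0.13 ± 0.06 (adjusted p = 0.206). Of the 6 membrane proteins 1 rose and 0 fell in limma, against 6.12% and 5.48% of all genes. At an unadjusted p under 0.05, 2 were lower, against 1479 of all 13956 genes tested. With 3 to 7 genes in each role, counts by role are too small to be set against the shares over all genes.

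**Figure D2:**
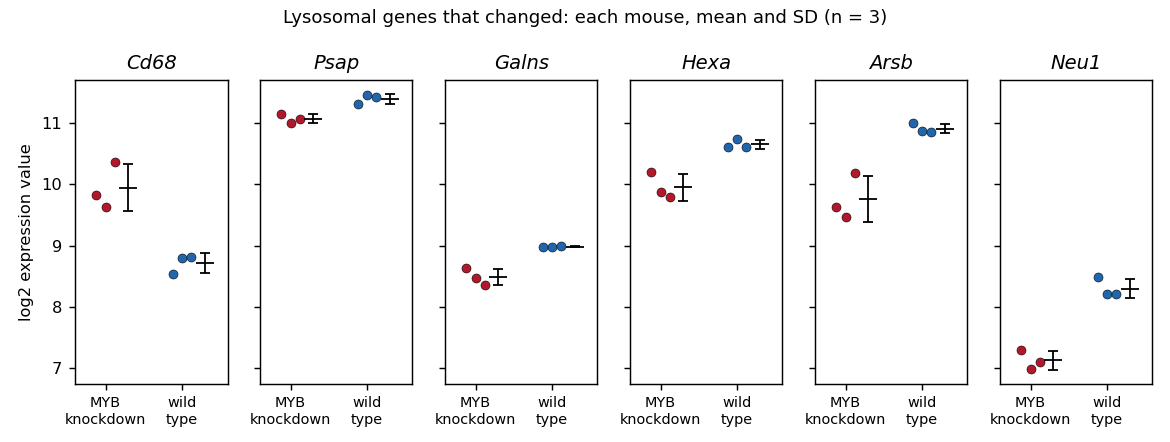
Log2 expression values of the 6 lysosomal genes that changed, with MYB knockdown mice in red on the left and wild type mice in blue on the right of each panel. Points are single mice and the bar beside them is the mean ± SD (n = 3). The groups overlap in none of the panels, and the 3 wild type values of Galns lie at 8.98 each.

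Of the hydrolases of glycoproteins and glycogen 1 of 6 fell and 0 rose in limma (16.7% and 0%, against 5.48% and 6.12% of all genes). Neu1, the sialidase that removes terminal sialic acids, had log2 values of 7.29, 6.98 and 7.09 in knockdown mice, against 8.48, 8.20 and 8.21 in wild type mice. The knockdown values lay close together and below each wild type value. The fall was 2.26-fold (adjusted p = 0.000838) and was called in all 14 other fits (-1.26 to -1.08). Neu1 works in a complex with beta-galactosidase (Glb1) and the protective protein cathepsin A (Ctsa). Glb1 had log2 values between 9.15 and 9.16 in knockdown mice and between 9.14 and 9.19 in wild type mice, a difference of -0.02 ± 0.08. Ctsa differed by 0.14 (adjusted p = 0.337). The sialidase thus fell without a called change of either partner, and the differences among the 3 genes were not tested.

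Manba, the beta-mannosidase, had log2 values of 8.74, 8.87 and 8.43 in knockdown mice, against 8.96, 8.94 and 8.95 in wild type mice. All knockdown values were lower, and the difference of -0.27 ± 0.12 had an adjusted p of 0.223. Gaa, the acid alpha-glucosidase that degrades glycogen, had values of 8.09, 8.04 and 9.04 in knockdown mice and of 8.06, 8.13 and 8.16 in wild type mice. The third knockdown mouse alone set its mean difference of 0.27 ± 0.24, which was -0.06 without that mouse. Man2b1, an alpha-mannosidase, and Fuca1, an alpha-fucosidase, differed by -0.08 ± 0.06 and -0.03 ± 0.13.

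Of the 7 enzymes listed for glycosaminoglycan breakdown 2 fell in limma, both of them sulfatases, and 0 rose. These are 28.6% and 0%, against 5.48% and 6.12% of all genes. Arsb removes sulfate from N-acetylgalactosamine at the 4 position in dermatan and chondroitin sulfate. Its log2 values were 9.63, 9.47 and 10.19 in knockdown mice, against 11.01, 10.87 and 10.87 in wild type mice. Each knockdown mouse was lower than each wild type mouse, and knockdown mouse 3 was the nearest to them. The fall was 2.23-fold (adjusted p = 0.00356), and in the 14 other fits the difference ran from -1.37 to -1.01 and was called each time. Arsb was the single gene of the 32 with a second probe set, which read 8.78, 8.76 and 9.72 in knockdown mice, against 10.10, 9.84 and 9.91 in wild type mice, a difference of -0.87.

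Galns removes sulfate from the 6 position of galactose and N-acetylgalactosamine in keratan and chondroitin sulfate. Its values were 8.63, 8.47 and 8.36 in knockdown mice and 8.98, 8.98 and 8.98 in wild type mice. The fall was 1.41-fold (adjusted p = 0.0172). It was called in 10 of 14 other fits, and leaving out 1 wild type mouse, whichever, or knockdown mouse 2, the adjusted p rose as high as 0.0909 while the difference stayed between -0.50 and -0.49. Sgsh, an N-sulfatase of heparan sulfate, read 7.14, 7.02 and 7.35 in knockdown mice, against 7.39, 7.53 and 7.41 in wild type mice. The groups did not overlap, and the difference of -0.27 ± 0.12 had an adjusted p of 0.188, or 0.0138 without knockdown mouse 3. Ids, the sulfatase of iduronate, had values of 8.11, 7.999 and 8.34 in knockdown mice and of 7.72, 7.99 and 7.96 in wild type mice, which did not overlap, a difference of 0.26 ± 0.13 (adjusted p = 0.258).

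The glycosidases listed with these sulfatases gave no call. Hexa, which fell, is a subunit of another glycosidase and is given below with the sphingolipid genes. Gusb (beta-glucuronidase), Naglu (alpha-N-acetylglucosaminidase) and Idua (alpha-L-iduronidase) differed by -0.05 ± 0.08, 0.11 ± 0.11 and -0.09 ± 0.12. Sumf1, which activates all sulfatases by modifying their active site, differed by -0.02 (adjusted p = 0.969), with values of 7.91, 7.86 and 7.32 in knockdown mice and of 7.75, 7.77 and 7.63 in wild type mice.

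In the breakdown of sphingolipids, 2 of 7 genes fell and 0 rose in limma (28.6% and 0%, against 5.48% and 6.12% of all genes). Hexa, whose product with its activator degrades the ganglioside GM2, had log2 values of 10.21, 9.87 and 9.79 in knockdown mice, against 10.62, 10.74 and 10.61 in wild type mice. Every knockdown mouse lay below every wild type mouse. The fall was 1.63-fold (adjusted p = 0.00615), and it was called in all 14 other fits (-0.83 to -0.62). Gm2a, the activator that lifts GM2 out of the membrane for Hexa, had values of 10.86, 10.70 and 11.05 in knockdown mice, against 10.86, 10.80 and 10.88 in wild type mice. These overlapped, and the difference was 0.02 ± 0.09 (adjusted p = 0.924).

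Psap, which is cut into the saposins that assist several sphingolipid hydrolases, had values of 11.15, 11.01 and 11.07 in knockdown mice, against 11.31, 11.47 and 11.44 in wild type mice. The fall was 1.26-fold (adjusted p = 0.0191) and the call was lost in 5 of 14 other fits (adjusted p up to 0.104), among them median centring, where the difference was -0.26. Gla, alpha-galactosidase A, had knockdown values of 9.05, 9.04 and 8.63 and wild type values of 9.38, 9.23 and 9.18. The groups did not overlap, and the difference of -0.36 ± 0.14 had an adjusted p of 0.138. Asah1 (acid ceramidase), Smpd1 (acid sphingomyelinase) and Arsa (arylsulfatase A) differed by 0.01 ± 0.12, 0.13 ± 0.14 and 0.03 ± 0.10. None of these differences exceeded the spread between mice, which does not show that knockdown and wild type mice were alike.

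Neither the sterol genes nor the peptidases gave a call, with 0 of 3 and 0 of 3 in limma, against 11.6% of all genes called. Npc1 and Npc2 together pass cholesterol out of the lysosome. Npc2 had log2 values of 9.31, 9.35 and 9.38 in knockdown mice, against 9.53, 9.50 and 9.51 in wild type mice. Its difference of -0.17 ± 0.08 had an adjusted p of 0.223, or 0.0353 without knockdown mouse 3. Npc1 differed by 0.10 ± 0.09, and Lipa, the acid lipase, by -0.01 ± 0.13 with knockdown values of 9.88, 9.56 and 9.36 on both sides of the wild type values of 9.59, 9.59 and 9.65. At an unadjusted p under 0.05 there were 0 of the 3 sterol genes and 2 of the 3 peptidase and thioesterase genes. Over all 13956 genes tested there were 3578.

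Ppt1, a thioesterase that removes palmitate from proteins, had values of 10.18, 10.16 and 9.81 in knockdown mice and of 10.48, 10.32 and 10.43 in wild type mice. The difference of -0.36 ± 0.11 came near the threshold (adjusted p = 0.0775) and passed it without knockdown mouse 3 (0.0184), after quantile normalization (0.031) and with array weights (0.00771). Lgmn, an asparaginyl endopeptidase, had values of 7.70, 7.19 and 7.43 in knockdown mice, against 7.18, 7.14 and 7.02 in wild type mice, a difference of 0.33 ± 0.14 (adjusted p = 0.188). Tpp1, a tripeptidyl peptidase, read 9.03, 8.65 and 9.47 in knockdown mice and 9.14, 9.13 and 9.14 in wild type mice. Its wild type values were nearly equal, while the knockdown mice lay on both sides of them (-0.09 ± 0.18, adjusted p = 0.838). With array weights the difference was -0.33 and passed the test (adjusted p = 0.0252), and without knockdown mouse 2 it was 0.11.

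**Figure D3:**
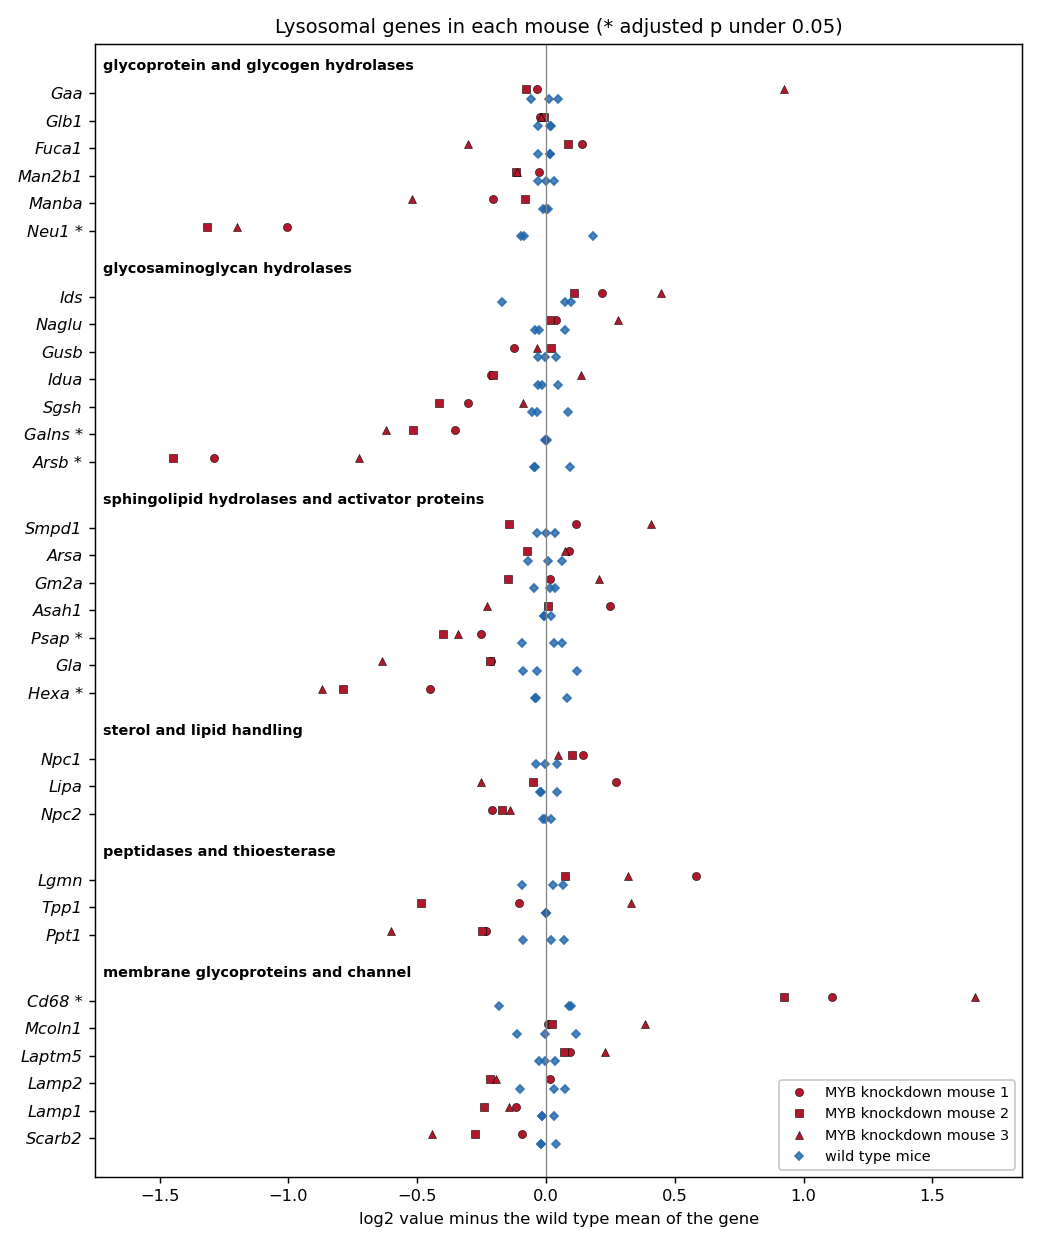
The 32 lysosomal genes by role, with each mouse's log2 value minus the wild type mean of the gene on the x axis. Red symbols are the 3 MYB knockdown mice, blue diamonds the 3 wild type mice, and an asterisk marks an adjusted p under 0.05. The wild type mice lie close together, while the knockdown mice spread, as for Gaa, Tpp1 and Lipa, where knockdown mouse 3 (triangle) lies far from knockdown mice 1 or 2.

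The knockdown mice varied more among themselves than the wild type mice did. The median SD of a lysosomal gene was 0.176 in knockdown and 0.0422 in wild type mice, and over all genes tested it was 0.171 and 0.079. In knockdown mouse 1, 10 genes lay above all wild type mice and 15 below them. In knockdown mouse 2 the counts were 6 and 21, and in knockdown mouse 3 they were 13 and 18. Shares over all genes are not given for these per-mouse counts, and a narrow wild type range makes such counts large. The median shift from the wild type mean was -0.03, -0.13 and -0.10 in the 3 mice. The groups did not overlap for 17 of the 32 genes (53.1%), against 34.3% of all genes tested. Of these, 5 were higher in knockdown (15.6%, against 19.9% of all genes) and 12 lower (37.5%, against 14.4%). The 12 were the 5 that fell and Manba, Sgsh, Gla, Npc2, Ppt1, Lamp1 and Scarb2, and the 5 were Cd68, Ids, Npc1, Lgmn and Laptm5. The 32 genes were bright, with a median level percentile of 84.97 among the genes with a probe set. The part of their level and of their small wild type SD in these shares was not tested.

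Among 22 other soluble hydrolases tested, 8 fell (36.4%, against 5.48% of all genes) and 1 rose (4.55%, against 6.12%), with a median difference of -0.12. Galc, the galactosylceramidase, fell by 2.10 ± 0.25 (adjusted p = 0.00116), with values of 6.48, 6.33 and 5.54 in knockdown mice, against 8.52, 8.02 and 8.11 in wild type mice. Naaa, an amidase of N-acylethanolamines, fell by 1.14 ± 0.14, Smpdl3a, a phosphodiesterase, by 1.09 ± 0.14 and Pcyox1, which degrades prenylcysteines, by 0.90 ± 0.17. The single rise was that of Scpep1, a serine carboxypeptidase, by 0.59 ± 0.14, a call kept in 1 of 6 fits with 1 mouse left out (adjusted p up to 0.141). The falls numbered 3 to 5 when 1 wild type mouse, whichever, or knockdown mouse 2 was left out, and 10 without knockdown mouse 3, where 4 rose. Of 29 other lysosomal membrane proteins and transporters 3 fell and 1 rose (13.8% called, against 11.6% of all genes, median -0.03). Cd63, a tetraspanin of lysosomes and granules, fell by 1.63 ± 0.19 (adjusted p = 0.00107), Slc36a1, an amino acid transporter, by 0.59 ± 0.10 and Ctns, the cystine transporter, by 0.50 ± 0.12, while Laptm4b rose by 0.45 ± 0.12. Of these membrane proteins 6 fell and 5 rose without knockdown mouse 3, and 1 fell and 0 rose without wild type mouse 1 or 2.

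Subunits of the proton pump fell in 4 of 17 cases (23.5%, against 5.48% of all genes) and rose in 0 in limma, with a median of -0.10. At an unadjusted p under 0.05, 1 was higher and 6 lower. The 4 that fell in limma were Tcirg1 (-0.56 ± 0.11), Atp6ap2 (-0.81 ± 0.17), Atp6v0a1 (-0.48 ± 0.11) and Atp6v1a (-0.42 ± 0.11). Tcirg1, the a3 subunit known from osteoclasts, read 9.19, 9.22 and 9.55 in knockdown mice, against 9.89, 9.94 and 9.81 in wild type mice. With each wild type mouse left out in turn limma called 0 of them, and with knockdown mouse 2 left out it called 1. Of 21 genes that tag or sort hydrolases 4 fell (19%, against 5.48% of all genes) and 0 rose (median -0.02). At an unadjusted p under 0.05, 2 were higher and 5 lower. Igf2r, the large receptor for mannose 6-phosphate, fell by 1.77 ± 0.19 (adjusted p = 0.000888). Its values were 6.05, 5.82 and 6.43 in knockdown mice, against 7.99, 8.08 and 7.52 in wild type mice. Sort1, sortilin, which carries Psap among others, fell by 0.88 ± 0.12, Gga2, an adaptor of these receptors, by 0.49 ± 0.11 and Grn, progranulin, by 0.43 ± 0.10. Igf2r and Sort1 were called without any 1 mouse, and the other 2 were called in 1 of 6 such fits.

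Of 18 genes of lysosome biogenesis and mTORC1 docking 1 rose and 2 fell (16.7% called, against 11.6% of all genes, median 0.10). Among the MiT factors, Tfec was lower by 4.41 ± 0.21, while Tfeb read 7.26, 7.26 and 7.83 in knockdown mice, against 6.66, 6.98 and 6.89 in wild type mice (0.60 ± 0.17, adjusted p = 0.059). Tfe3 differed by 0.43 ± 0.17 (adjusted p = 0.151) and Mitf by -0.09 ± 0.09. Rraga, a GTPase that docks mTORC1 on lysosomes, rose by 0.57 ± 0.09, and Fnip1, a partner of folliculin, fell by 0.76 ± 0.17. Without knockdown mouse 3 the list had 5 rises and 3 falls. Fnip1 was not called when 1 wild type mouse, whichever, or knockdown mouse 2 was left out.

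**Figure D4:**
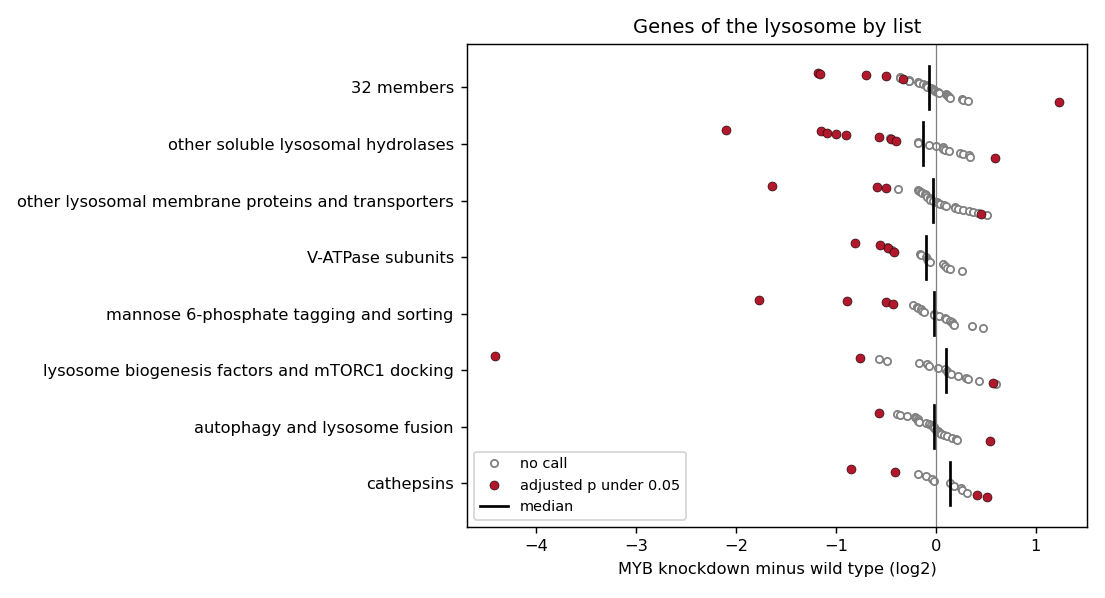
Differences between MYB knockdown and wild type mice (log2, x axis) for the 32 lysosomal genes and 7 other lists of lysosomal genes, 1 circle per gene tested. Red circles passed an adjusted p of 0.05, open circles did not, and black lines are medians. The medians lie between -0.12 and 0.14, and the red circles far to the left include Galc, Cd63, Igf2r and Tfec.

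In sorted cells, fewer cells of a type and less RNA per cell cannot be told apart. Over all genes tested 6.12% were called higher and 5.48% lower, the background for the counts that follow. Of 16 neutrophil granule genes 11 fell and 1 rose, and the log2 of their summed linear values was 14.16 to 14.57 in knockdown and 15.68 to 15.69 in wild type mice. Of 14 macrophage genes tested 5 fell and 1 rose, with sums of 10.07 to 10.98 in knockdown and 11.47 to 11.74 in wild type mice, and 1 of the 15 with a probe set, Cd163, was too dim to be tested. Adgre1 (F4/80) read 8.74, 7.92 and 7.86 in knockdown mice, against 7.73, 7.76 and 7.81 in wild type mice (adjusted p = 0.294), and Fcgr1 rose by 0.76 ± 0.10. Adgre1 and Fcgr1 were the only 2 of the 14 with a higher mean in knockdown mice, and 12 were lower. The largest falls were those of Vcam1 (-3.00 ± 0.24) and Slc40a1 (-2.37 ± 0.31). Leaving out knockdown mouse 1, 9 macrophage genes fell, and leaving out 1 wild type mouse, whichever, or knockdown mouse 2, 3 did. Of 9 monocyte genes 2 fell and 1 rose (sums of 12.3 to 12.52 in knockdown and 12.67 to 12.93 in wild type mice). Their median difference was -0.03, with 3 higher and 6 lower. F13a1 fell by 2.84 ± 0.34 and Mpeg1 by 0.98 ± 0.13, and the lower sums mostly follow F13a1. Of 7 eosinophil genes 5 fell (9.118 to 10 in knockdown, 12.02 to 12.28 in wild type), and of 7 mast cell and basophil genes 4 fell and 2 rose (11.5 to 11.9 in knockdown, 12.52 to 12.95 in wild type). Of 8 megakaryocyte and platelet genes 6 rose, with sums of 12.1 to 12.3 in knockdown and 10.88 to 11.03 in wild type mice. Of 7 B lymphoid genes 3 fell and 0 rose in limma (5 lower and 0 higher at an unadjusted p under 0.05), with sums of 10.2 to 10.27 in knockdown and 10.57 to 10.99 in wild type mice, and 2 to 5 fell with 1 mouse left out. Of 10 dendritic cell genes 3 rose and 2 fell (11.96 to 12.21 in knockdown, 11.84 to 11.98 in wild type), and with 1 mouse left out 1 to 4 rose and 0 to 4 fell. Of 5 T and NK genes 1 rose, Klrd1 (1.42 ± 0.19), and 1 fell, Nkg7 (-1.44 ± 0.13), with a median of -0.03. Their sums were 10.66 to 11.12 in knockdown and 12.07 to 12.18 in wild type mice. Nkg7 was by far the brightest of the list, with a wild type mean of 12.02, so these sums mostly follow that gene. Of 7 erythroid genes 1 rose (12.18 to 12.97 in knockdown, 12.33 to 12.64 in wild type), a count of 0 in 4 of 6 fits with 1 mouse left out. For the 32 lysosomal genes the sum was 14.63 to 14.75 in knockdown and 14.84 to 14.85 in wild type mice. Such a sum weighs bright genes most, among them Arsb, Hexa and Psap, which fell. The median difference of the 32 genes was -0.07. The part of these cell types in the changes of Cd68, Neu1, Arsb and the other lysosomal genes was not tested.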

How the data were processed

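Total RNA of sorted bone marrow cells was hybridised to 6 Affymetrix arrays after whole-transcript labelling, per the labels' protocols. The authors deposited log2 values, 1 for each probe set on each array. Affymetrix Expression Console and limma are named in the submitters' processing notes, while versions, background correction and normalization are not given there. No read depth exists: the number of arrays limits the precision, and bright probe sets can understate a change.

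Of 35556 probe sets 21789 had 1 symbol, 1621 several and 12146 were not in the annotation used. They gave 19938 genes, and the dimmest 30% by mean over the 6 arrays were left out. Knockdown minus wild type was fitted on the remaining 13956 genes in limma 3.58.1 (R 4.3.3; lmFit, eBayes with a trend, no covariates) with Benjamini-Hochberg adjustment over all of them and a threshold of 0.05. The fit was checked on simulated data. The labels name separate mice. The 32 genes, the other lists and the motifs were chosen with earlier results of these data known. All 32 are named, with every array's value for those called. Of the other lists up to 4 called genes of smallest p are named. Scpep1, Tfeb, Tfe3, Mitf, Ctsa, Sumf1, Adgre1, Fcgr1, Cd163, Vcam1, Slc40a1, F13a1, Mpeg1, Klrd1 and Nkg7, and the per-mouse values of genes without a call, were added after their values were seen. The same numbers in both groups name different mice, and no pairing was seen (correlations of deviations 0.293, -0.188 and -0.0827). No scan date or other batch is given.

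The alternatives were a replicate block, each array left out, quantile normalization, median centring, no filter or one at 50%, the mean of probe sets, no trend, array weights, an adjusted p of 0.1 and a minimum of 1.5-fold. Those for the other lists were added after seeing the data.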

Additional observations from a re-analysis of the deposited data

How the results depend on the processing

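With 3 mice per group, the calls depend on single mice. Of the 32 lysosomal genes 1 rose under every alternative. The falls, 5 with all arrays, ran from 3 to 9 with 1 array left out, and were 11 with array weights and 3 at a minimum of 1.5-fold. Over all genes, 854 rose and 765 fell. With 1 array left out the rises ran from 296 to 2397 and the falls from 367 to 1397. Array weights gave 2351 rises and 1561 falls, a minimum of 1.5-fold 407 and 508, median centring 1433 rises and 593 falls, and an adjusted p of 0.1 gave 1374 rises. With the replicate number as a block, 1 lysosomal gene rose and 5 fell, and over all genes 746 rose and 726 fell, and 2 of 6 arrays correlated best with their own number. Cd68, Neu1, Arsb and Hexa were called in every fit, while Galns and Psap were not. Signs of genes without a call turned as follows, first without knockdown mouse 3 and with array weights: Gaa (-0.056 and -0.033), Fuca1 (0.11 and 0.072), Smpd1 (-0.014 and -0.060), Gm2a (-0.066 and -0.10) and Lipa (0.11 and 0.0055). Glb1 was 0.0029 with array weights. Median centring gave Glb1 0.058, Fuca1 0.049, Gusb 0.028 and Lipa 0.064, and quantile normalization Asah1 -0.017 and Gm2a -0.0054. With 1 array left out, the differences ran from -0.056 to 0.45 for Gaa, -0.11 to 0.11 for Fuca1, -0.0052 to 0.081 for Arsa, -0.11 to 0.13 for Asah1, -0.014 to 0.26 for Smpd1, -0.066 to 0.11 for Gm2a, -0.15 to 0.11 for Lipa and -0.30 to 0.11 for Tpp1. The cause of these changes was not tested. Median centring moved the median of all genes to 0.09.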

Other observations

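Of 26 genes of autophagy and lysosome fusion tested, 1 rose and 1 fell (7.69% called, against 11.6% of all genes; median -0.02). Gabarapl1, an ATG8-family protein of autophagosomes, rose by 0.54 ± 0.08 (limma adjusted p = 0.00501), with log2 values of 9.75, 9.81 and 9.76 in knockdown mice, against 9.23, 9.16 and 9.32 in wild type mice. It was called without any 1 mouse. Atg9a, the membrane protein that seeds autophagosomes, fell by 0.57 ± 0.10 (adjusted p = 0.0102), a call lost without wild type mouse 2 or 3. Without knockdown mouse 3, 3 genes of this list fell.

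Of 13 cathepsins tested 2 rose and 2 fell (30.8% called, against 11.6% of all genes, median 0.14). Ctsg, cathepsin G of azurophil granules, fell by 0.85 ± 0.08 and Ctsb by 0.40 ± 0.11, while Ctss and Ctsw rose by 0.51 ± 0.13 and 0.41 ± 0.11. Without any 1 wild type mouse or without knockdown mouse 1 or 2, limma called 0 cathepsins higher, and without knockdown mouse 3 it called 5. The call of Ctsb was lost when 1 wild type mouse, whichever, or knockdown mouse 2 was left out (adjusted p up to 0.176), which left Ctsg as the single fall. On all arrays 3 were higher and 2 lower at an unadjusted p under 0.05.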
